A study of Homo sapiens with 2 samples.

Results

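The 4 HOX gene clusters of HEC-1-B cells, a human endometrial adenocarcinoma line, were examined in 2 lists of regions carrying H3K4me3, trimethylation of lysine 4 of histone H3. It was measured by ChIP-seq, in which fragments bound by an antibody to the mark are sequenced. There was 1 library of wild-type cells and 1 of cells labelled as a ZNF143 knockout. ZNF143 is a zinc-finger transcription factor that binds promoters, and the series asks how its loss alters chromatin organisation. Both lines were grown in the same medium, and whether the knockout line is a single clone is not given in the sources used here. Members were the regions overlapping hg19 windows on chromosome 7 from 27130000 to 27250000 (HOXA), chromosome 17 from 46600000 to 46810000 (HOXB), chromosome 12 from 54330000 to 54450000 (HOXC) and chromosome 2 from 176955000 to 177056000 (HOXD). These windows held 38 of 19782 wild-type regions and 45 of 19647 knockout regions on the assembled chromosomes. With 1 library per genotype no difference has a replicate check, no test between genotypes was made, and intervals cover counting error only.

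HOX genes encode homeodomain transcription factors that give cells their position along the body axis. Within a cluster the genes lie in the order in which they are used, from anterior to posterior, and the paralogs of the different clusters share sequence and position in that order. In the female reproductive tract, posterior HOXA genes pattern the Müllerian duct, with HOXA9 marking the future oviduct, HOXA10 the uterus, HOXA11 the lower uterus and HOXA13 the vagina. HOXB13 is known from prostate and hindgut, HOXC13 from hair and nail, and HOXD13 from digits and the urogenital tract. Active HOX genes carry H3K4me3 placed by MLL-family methyltransferases, and silent ones are held by Polycomb complexes.

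The 38 member genes were all found in the RefSeq gene table of GRCh38.p14, which was used for their order and for nothing else. In the HOXA cluster the order runs from HOXA2 through HOXA3, HOXA4, HOXA5, HOXA6, HOXA7, HOXA9, HOXA10 and HOXA11 to HOXA13, and in the HOXB cluster from HOXB1 to HOXB9 and then HOXB13. In both, the anterior side has the lower coordinates. The HOXC cluster runs from HOXC4 to HOXC13 and the HOXD cluster from HOXD1 to HOXD13, with the anterior side at the higher coordinates. Positions below are therefore distances from the anterior edge of each window. Because the gene table and the peak lists use different builds, a region was not tied to a single gene, and the windows also hold antisense and other non-coding genes that such a region could belong to.

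H3K4me3 is placed preferentially where CG dinucleotides are dense and unmethylated, so the promoters of outlying members are shown with each CG in capitals. RefSeq promoters of GRCh38.p14 were matched for 20 of the 38 members, with 26 distinct entries of 300 bases. Of HOXB only HOXB1 was matched and of HOXC only HOXC4 and HOXC5, so the entries stand mainly for HOXA and HOXD. The median entry held 22.5 CG dinucleotides, against 14 over all 35116 promoters in the table, whose quartiles were 4 and 28. The median GC content was 58.0% against 58.7%. Entries of 1 gene differed widely: those of HOXA3, which has several start sites, held from 0 to 29 CG dinucleotides. The 250 bases before the start are printed 5′ to 3′ for 1 outlying member of each cluster, HOXA13 (chr7:27200092-27200341, minus strand), HOXB1 (chr17:48531012-48531261, minus strand), HOXC4 (chr12:54016638-54016887, plus strand) and HOXD13 (chr2:176092471-176092720, plus strand). These are GRCh38.p14 positions and do not compare with the hg19 positions of the regions.
HOXA13: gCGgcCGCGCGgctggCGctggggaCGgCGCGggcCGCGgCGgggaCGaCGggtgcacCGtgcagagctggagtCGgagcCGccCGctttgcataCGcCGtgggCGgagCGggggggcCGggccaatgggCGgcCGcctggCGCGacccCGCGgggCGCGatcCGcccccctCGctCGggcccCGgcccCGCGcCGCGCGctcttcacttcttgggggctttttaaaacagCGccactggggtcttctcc
HOXB1: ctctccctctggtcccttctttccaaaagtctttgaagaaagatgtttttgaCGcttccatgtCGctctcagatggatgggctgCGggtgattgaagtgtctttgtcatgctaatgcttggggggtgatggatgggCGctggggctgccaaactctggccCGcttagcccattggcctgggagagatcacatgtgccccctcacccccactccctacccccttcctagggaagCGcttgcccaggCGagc
HOXC4: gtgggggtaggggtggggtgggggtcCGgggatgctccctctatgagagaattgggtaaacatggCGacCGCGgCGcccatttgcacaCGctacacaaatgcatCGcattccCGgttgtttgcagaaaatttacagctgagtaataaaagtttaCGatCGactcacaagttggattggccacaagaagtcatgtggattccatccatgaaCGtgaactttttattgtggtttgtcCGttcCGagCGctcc
HOXD13: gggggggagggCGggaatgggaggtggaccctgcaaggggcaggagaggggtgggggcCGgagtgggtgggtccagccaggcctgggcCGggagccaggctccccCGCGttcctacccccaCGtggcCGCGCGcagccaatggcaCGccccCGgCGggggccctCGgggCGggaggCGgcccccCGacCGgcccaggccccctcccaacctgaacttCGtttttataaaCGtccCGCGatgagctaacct

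Among the printed stretches, HOXA13 held 40 CG dinucleotides and HOXD13 21, against 7 in HOXB1 and 14 in HOXC4. Each comes from a different cluster, so they do not compare posterior with anterior members. Within clusters, the 300-base entries of the outermost members went both ways. HOXA13 held 44 and HOXA2 11, but HOXD13 held 24 and HOXD1 36. No entry was matched for HOXB13 or HOXC13. The HOXC4 entry is a start site that the table also lists for HOXC5. It may lie inside the cluster and not at its anterior end. Across the 300-base entries, ACTACAA, a part of the ZNF143 binding motif, had no match on either strand in the 26 member entries. It was present in 2.77% of all promoters, too small a share for its absence from 26 entries to set the members apart. CCCAGNATG, from the neighbouring part of that motif, matched 1 HOXA10 entry and 1.83% of all promoters. TATAAA, the TATA box, matched 5 member entries (1 of HOXA3, HOXA9 and HOXD13 each, and both of HOXA10) and 11.5% of all promoters. No motif overlaps another by its letters, and a match describes letters only.

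All 4 clusters carried the mark in both genotypes, to very different extents. In the wild-type list the HOXA window held 15 regions covering 11.6% of its bases, the HOXB window 13 regions covering 6.44%, the HOXC window 5 regions covering 3.50% and the HOXD window 5 regions covering 4.96%. In the knockout list the numbers were 14 regions and 12.5% for HOXA, 16 and 8.09% for HOXB, 9 and 5.50% for HOXC, and 6 and 5.89% for HOXD. HOXA was thus the most densely marked cluster in both lists and HOXC the least. Over the 4 windows together, wild-type regions covered 6.66% of the bases and knockout regions 8.09%. The same shares over the span from the first to the last region of every chromosome were 0.597% and 0.664%.

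**Figure D1:**
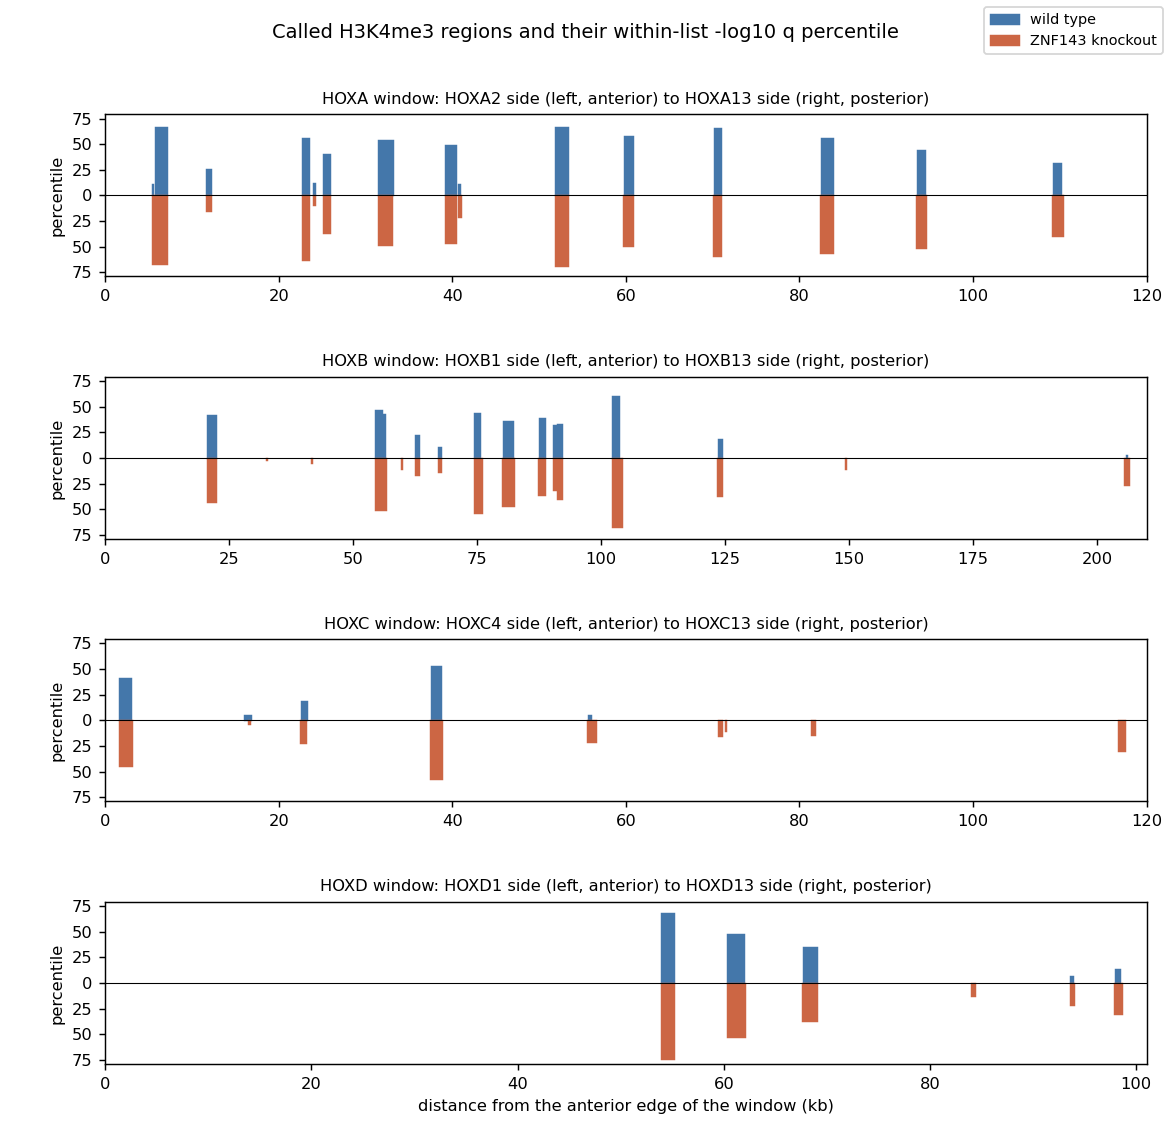
Called H3K4me3 regions in the 4 HOX windows, with the distance from the anterior edge in kb on the horizontal axis and the within-list percentile of −log10 q as bar height, wild type upward and ZNF143 knockout downward. Bars are as wide as the regions. HOXA regions ran from 5.5 to 109.7 kb, the HOXD window held none before its middle, and beyond the middle of the HOXC window there were 4 knockout and 0 wild-type regions.

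Strength was described by ranks within each list. The authors' fold (column 7, the height at the summit over a local background rate) and −log10 q (column 9) were turned into percentiles of their own list, where 50 is the middle. HOX regions were of middling to low rank: the median fold percentile was 29.6 for wild-type and 33.0 for knockout regions, and the median −log10 q percentile 39.6 and 37.0. The highest −log10 q percentile of a HOX region was 68.6 among wild-type and 74.1 among knockout regions. Widths were near those of the whole lists, with medians of 952 bp (wild type) and 929 bp (knockout) against 883 and 1003 bp. The summit pileup, the number of fragments stacked at the summit, was recovered from the fold and p columns. Its median was 197 fragments over all wild-type regions and 355 over all knockout regions. The genome background rate was taken as the lowest recovered local rate of each list. By it the knockout library was the deeper, with 3.25 against 1.40 fragments per base, a ratio of 2.31.

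In the HOXA cluster, summits ran from 5.5 kb in the wild-type and 6.2 kb in the knockout list to 109.7 kb, with gaps of 0.6 to 15.5 kb between neighbouring summits in both lists. Every HOXA region overlapped a region of the other list. The highest pileup stood at the anterior end, at 6.2 kb, with 379 fragments in wild-type and 712 in knockout cells. There the knockout list had 1 region of 1768 bp, its widest in the cluster, in place of 2 wild-type regions of 206 and 1343 bp. The widest wild-type HOXA region, of 1689 bp, lay from 27161425 to 27163113 at 32.3 kb, and its knockout partner measured 1626 bp.

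The sharpest HOXA region lay near the middle, at 70.6 kb, from 27200130 to 27200971. Its fold was 24.0 in wild-type and 22.9 in knockout cells, at percentiles of 97.9 and 97.9. This was the region of highest fold in any of the 4 clusters in both lists, although its −log10 q stood only at percentiles 65.8 and 58.7 and its pileup at 215 and 329 fragments. The fold set that pileup over a recovered local rate of 5.71 and 4.13 times the genome rate. At the anterior end of HOXA the local rate was 29.1 and 25.3 times. At 109.7 kb it was lower still, at 2.28 and 3.82 times, but pileups were 56 and 176 and folds 13.6 and 13.2. Fold and −log10 q thus ordered the HOXA regions differently.

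Beyond the middle of the HOXA window, the 5 stretches at 60.5, 70.6, 83.2, 94.2 and 109.7 kb were called in both genotypes. Their wild-type pileups were 202, 215, 254, 122 and 56 fragments, so the last 2 were the lowest. In the knockout they were 280, 329, 465, 319 and 176. The last stretch, on the HOXA13 side of the cluster from 27239105 to 27240326 over both lists, kept its fold percentile, at 63.5 and 63.2, while its −log10 q percentile was 32.0 in wild-type and 39.9 in knockout cells.

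In the HOXB cluster 10 of 13 wild-type and 10 of 16 knockout regions lay between 55.6 and 102.8 kb. On the anterior side of that stretch, toward HOXB1, the wild-type list held 1 region, at 21.4 kb, and the knockout list that one and 2 weak ones. Between 75.3 and 91.8 kb, 5 neighbouring stretches had wild-type pileups of 212, 170, 200, 161 and 166 fragments and knockout pileups of 540, 502, 343, 298 and 392. Their folds were low, from 4.11 to 6.34 for wild-type and from 3.59 to 7.47 for knockout regions, with recovered local rates from 23.2 to 27.5 and from 22.0 to 27.0 times the genome rate. The widest HOX region in either list lay here, from 46680228 to 46682313 in wild-type cells (2086 bp, width percentile 98.5) and from 46679947 to 46682329 in knockout cells (2383 bp, 99.3). Its fold percentiles were only 11.9 and 20.4. By pileup the same region stood far higher, at percentiles 46.3 and 61.0.

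The highest HOXB pileup was at 102.8 kb, with 300 fragments in wild-type and 644 in knockout cells and −log10 q percentiles of 60.5 and 67.8. Its fold, 10.2, was the highest of the wild-type HOXB regions. Past it the wild-type list held 2 regions, at 123.9 and 205.9 kb. The one at 205.9 kb, from 46805834 to 46806050, was the most posterior of the cluster, on the side of HOXB13, and had the lowest pileup of the wild-type HOX regions, with 10 fragments, a fold of 4.58 and a width of 217 bp. In the knockout list the region there ran from 46805541 to 46806388 with 59 fragments and a width of 848 bp, and its fold of 13.5 was the highest of the knockout HOXB regions.

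In the HOXC cluster 2 stretches stood above the rest by pileup. They were of middling rank in the whole lists, at pileup percentiles of 39.2 and 45.8 (wild type) and 42.5 and 50.6 (knockout). At 2.1 kb, on the side of HOXC4, pileups were 121 (wild type) and 250 (knockout) fragments over the widest HOXC region of each list, 1385 and 1499 bp. At 37.9 kb they were 166 and 362, and the folds of 18.4 and 16.9 were the highest of this cluster. The stretches at 16.6 and 22.8 kb held 12 and 23 fragments in the wild-type and 16 and 45 in the knockout library. The last wild-type region, at 55.8 kb from 54394005 to 54394341, held 11 fragments, and its knockout partner from 54393477 to 54394450 held 41.

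In the HOXD cluster neither list had a region between the anterior edge, on the side of HOXD1, and the middle of the window. The first and strongest stretch stood at 54.5 kb, with 310 and 611 fragments, folds of 13.6 and 14.2, and −log10 q percentiles of 68.6 and 74.1, the top −log10 q ranks of any HOX region in the 2 lists. Pileups were lower at each next shared stretch toward the posterior side up to 93.7 kb: 182, 84 and 12 fragments in the wild-type library at 61.1, 68.2 and 93.7 kb, and 405, 171 and 56 in the knockout library. The widest HOXD regions, of 1592 and 1676 bp, were those at 61.1 kb. The outermost stretch, at 98.1 kb on the side of HOXD13, held 17 fragments in wild-type and 94 in knockout cells.

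**Figure D2:**
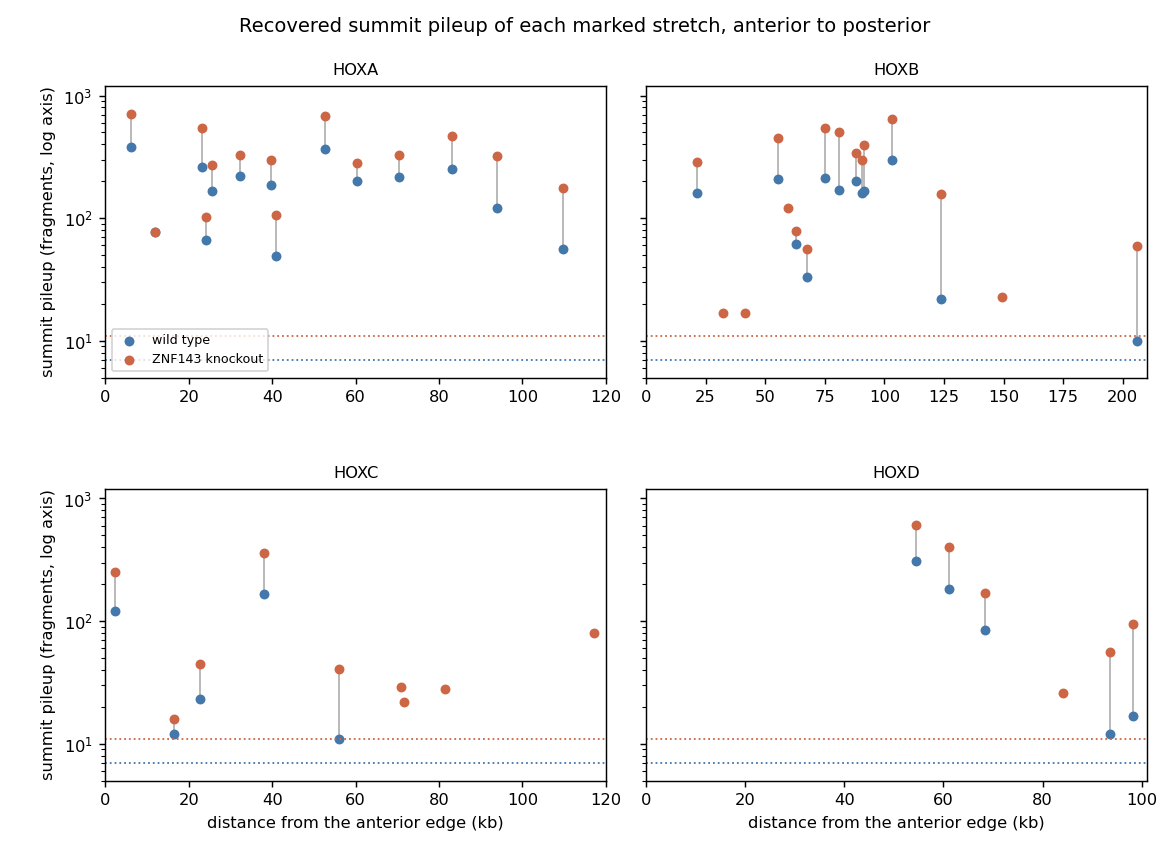
Recovered summit pileup (fragments, log axis) of each marked stretch against the distance from the anterior edge in kb, for wild type (blue) and ZNF143 knockout (orange), with grey lines joining the genotypes and dotted lines at the lowest pileup called anywhere in each list (7 and 11). Where a genotype has 2 regions in a stretch, the higher is plotted. The longest grey lines are those of the posterior HOXB and HOXD stretches, and the 4 posterior HOXC points have no wild-type partner.

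The lists were then compared for presence of the mark. All 38 wild-type HOX regions overlapped a knockout region, which leaves 0 unshared, and over the whole list 5.53% of wild-type regions were unshared. Of the 45 knockout HOX regions, 9 (20.0%) overlapped no wild-type region, against 9.67% over the whole list. They fell in 3 clusters, with 4 in HOXB, 4 in HOXC, 1 in HOXD and 0 in HOXA. Weak regions of the deeper list are unshared more often: among all knockout regions with a pileup of at most 30 fragments 49.1% were unshared, and among the 8 such HOX regions 7 were. When sharing required an overlap of 50% of both regions, 6 of the 38 wild-type HOX regions were unshared (15.8%, against 15.9% of the whole list) and 13 of the 45 knockout ones (28.9%, against 15.4%).

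The 4 knockout HOXC regions without a partner were all of its regions beyond the middle of the window. They lay from 54378946 to 54379335 (29 fragments), from 54378445 to 54378630 (22 fragments), from 54368226 to 54368688 (28 fragments) and from 54332488 to 54333290 (80 fragments). The last of these was the outermost region, at 117.2 kb on the side of HOXC13, with a fold of 14.3 (percentile 70.6), a width of 803 bp and a local rate of 1.43 times the genome rate. Only 28 of the 1900 unshared knockout regions had a higher fold, and 273 a higher pileup. Across all one-to-one pairs the knockout pileup was 1.86 times the wild-type pileup in the median. Divided by that ratio the outermost region would hold 43.0 wild-type fragments and the other 3 between 11.8 and 15.6. The weakest wild-type call anywhere held 7, but whether regions of such heights are usually called in that library was not tested. Division by the ratio of the genome background rates, 2.31, would give lower numbers.

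The unshared HOXB regions were narrower, from 186 to 216 bp. Those at 32.5 and 41.6 kb held 17 fragments each and the one at 149.3 kb held 23. The fourth, from 46659565 to 46659750 at 59.7 kb, held 120 fragments but lay in the crowded part of the cluster, with a local rate 17.9 times that of the genome and a fold of 2.05 (percentile 0.555). The unshared HOXD region, from 176971627 to 176972046 at 84.3 kb, held 26 fragments, or 14.0 after division by the median pair ratio. By the same division the one at 59.7 kb would hold 64.6 wild-type fragments and the other 3 HOXB regions between 9.14 and 12.4.

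Of the bases covered in wild-type cells, 97.1% were also covered in knockout cells, and 80.0% the other way round. Over the whole lists these shares were 95.9% and 86.2%. The share of knockout bases found in both lists was 91.1% in HOXA, 78.0% in HOXB, 55.8% in HOXC and 84.3% in HOXD. HOXC thus had the least overlap, and its covered length was 1.57 times as large in the knockout list, against 1.08 in HOXA, 1.26 in HOXB, 1.19 in HOXD and 1.11 over the whole lists. Regions were mostly wider in the knockout list, in 25 of the 34 one-to-one HOX pairs, with a median width ratio of 1.05. Over all 16501 pairs 82.2% were wider in the knockout list, with a median ratio of 1.06.

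**Figure D3:**
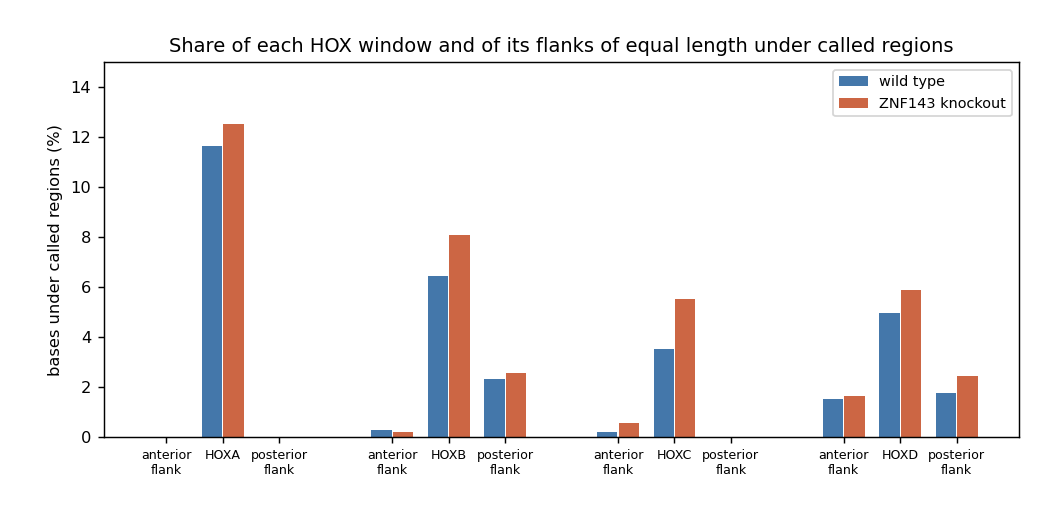
Share of bases under called regions (%, bars from 0) in each HOX window and in the flanks of equal length on its anterior and posterior side, for wild type (blue) and ZNF143 knockout (orange). Each window exceeded both of its flanks in both lists. No base of either HOXA flank or of the posterior HOXC flank was covered.

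Strength at shared places was compared over the 34 one-to-one HOX pairs. For each pair the log2 of knockout over wild-type pileup was taken relative to the genome-wide median, so 0 means the ratio that pairs had in general. The quartiles of all pairs were −0.20 and 0.19. The median was −0.21 over 13 HOXA pairs, 0.21 over 11 HOXB pairs, 0.15 over 5 HOXC pairs and 0.26 over 5 HOXD pairs. Pairs outside the windows but within 2 Mb of them had medians of −0.08, 0.14, 0.05 and 0.01 in the same order. HOX pairs departed from the general ratio in both directions: 11 of the 34 lay between the quartiles of all pairs, with 3 in HOXA, 4 in HOXB, 2 in HOXC and 2 in HOXD. For the 27 HOX pairs with more than 30 wild-type fragments the median was 0.01, and 14 of them lay above 0.

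Departures of over 1.5-fold from the general ratio were counted next. Of the 34 HOX pairs, 7 had a higher knockout pileup by this rule, against 7.11% of all pairs, and 1 had a lower one, against 6.45% of all pairs. The lower one was an anterior HOXA stretch at 11.9 kb, from 27141551 to 27142231, with 77 fragments in each library, a centred log2 ratio of −0.89 (95% interval −1.37 to −0.42) and fold percentiles of 14.1 in wild-type and 4.58 in knockout cells. Of the higher ones, 6 of 7 were the last or next-to-last shared stretch of their cluster, counted from the anterior side. The HOXC stretch among them lay before the middle of its window, and the 4 knockout stretches beyond it have no ratio.

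In HOXB the stretch at 123.9 kb, from 46723365 to 46724427, held 22 wild-type and 157 knockout fragments, a centred log2 ratio of 1.94 (95% interval 1.29 to 2.66). The outermost HOXB stretch, at 205.9 kb, held 10 and 59 fragments, with a ratio of 1.67 (0.69 to 2.80). The outermost HOXD stretch held 17 and 94 fragments, with 1.57 (0.82 to 2.41), and its neighbour at 93.7 kb 12 and 56, with 1.33 (0.41 to 2.36). In each of these 4 the knockout pileup was over 4 times the wild-type pileup before centring. Each interval lay above 0, but the pairs were picked for their high ratios, so this adds no support. The intervals cover counting error only.

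The last shared HOXC stretch, at 55.8 kb, held 11 and 41 fragments, with a ratio of 1.00 (0.02 to 2.11). In HOXA, where the posterior stretches were stronger, the outermost had 56 and 176 fragments and a ratio of 0.76 (0.32 to 1.22), and its neighbour at 94.2 kb had 122 and 319 and a ratio of 0.49 (0.19 to 0.81). The remaining pair past 1.5-fold was inside HOXB at 81.4 kb, with 170 and 502 fragments and a ratio of 0.67 (0.41 to 0.93). In HOXA, HOXC and HOXD the most posterior pair had the highest ratio of its cluster, and in HOXB the second highest. Except in HOXA, wild-type pileups of these last pairs were low. Among all 2397 pairs with at most 30 wild-type fragments the median centred ratio was −0.01, and 20.9% were over 1.5-fold higher in the knockout. Of the 7 such HOX pairs 5 were, and the other 2 were the HOXC stretches at 16.6 and 22.8 kb, with ratios of −0.48 and 0.07. The outermost HOXB pair and the HOXC pair at 55.8 kb overlapped by less than 50% of the wider region. With that overlap required, 5 of 32 HOX pairs were over 1.5-fold higher, against 6.15% of all pairs.

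**Figure D4:**
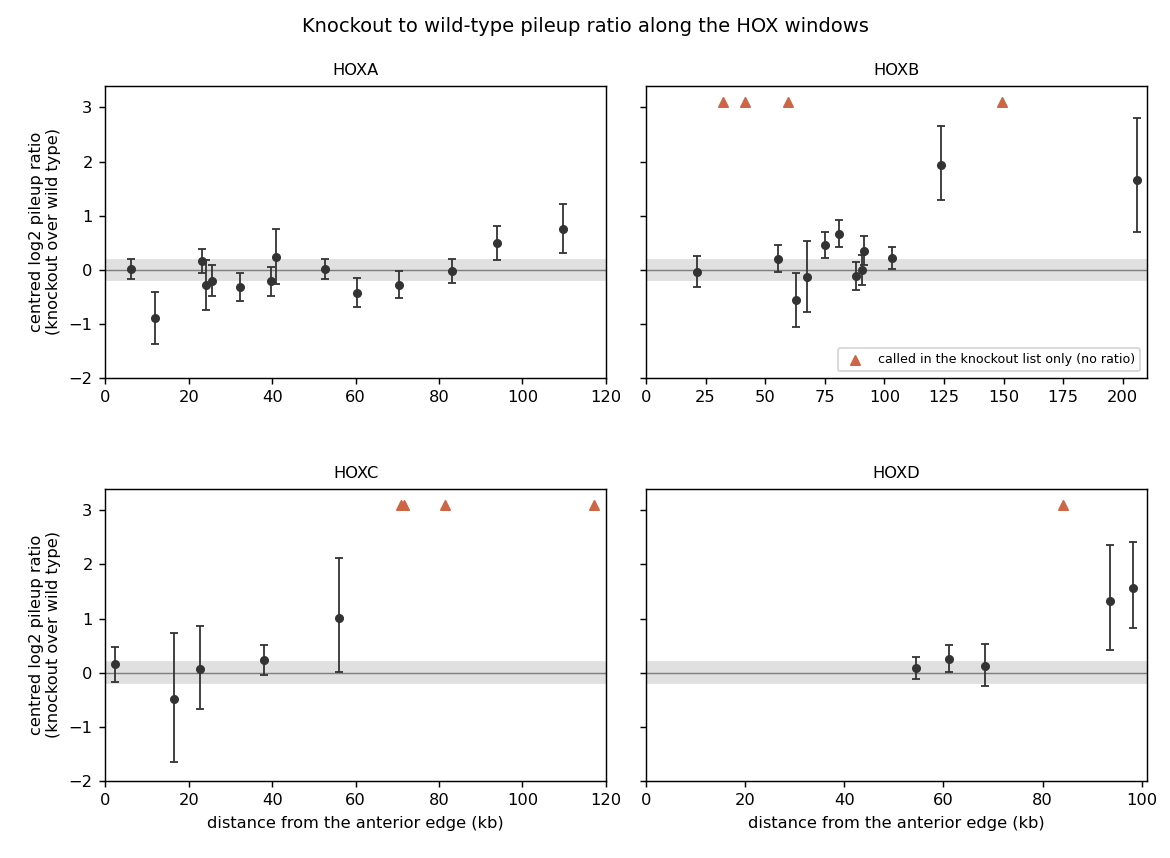
Knockout over wild-type pileup, as a centred log2 ratio, of each stretch called in both genotypes, against the distance from the anterior edge in kb, with 95% intervals from counting error, a grey band between the quartiles of all pairs, and triangles for stretches called in the knockout list only, which have no ratio. The most posterior shared stretch had a ratio of 0.76 in HOXA, 1.67 in HOXB, 1.00 in HOXC (before the middle of the window) and 1.57 in HOXD, and the next HOXB stretch had 1.94.

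By rank of fold 5 of these 7 pairs stood out. The fold percentile was higher in the knockout by over 10 points in 5 of 34 HOX pairs (8.90% of all pairs) and lower by over 10 points in 0 (9.44% of all pairs). The 5 pairs were the outermost HOXB stretch, with percentiles of 10.3 in wild-type and 64.7 in knockout cells, the HOXC stretch at 55.8 kb with 13.0 and 38.8, the outermost HOXD stretch with 25.8 and 47.9, the HOXB stretch at 123.9 kb with 36.3 and 51.2, and the HOXD stretch at 93.7 kb with 15.6 and 28.6. The other pairs past 1.5-fold in pileup were not among them: the HOXB pair at 81.4 kb shifted by 8.50 points and the outermost HOXA pair by −0.27. The median absolute shift was 3.56 points over the HOX pairs and 3.89 over all pairs.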

How the data were processed

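The 2 lists analysed came from 1 library of each genotype. The submitters' processing notes name Bowtie2, MACS2, SAMtools 1.12, deepTools and the builds GRCh37 and hg19, without roles. A control library is not given in the sources used here. The deposited lists have 10 columns and no header: column 7 was read as a fold (ratio) over a local rate, columns 8 and 9 as −log10 p and −log10 q. The deposited score (column 5) repeats column 9 and was not used.

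Pileups were recovered as the whole number for which fold and −log10 p match a Poisson tail (largest relative error 2.67e-05), with code checked on simulated lists. Percentiles are mean ranks over the assembled chromosomes. Regions sharing at least 1 bp were called shared, and those with 1 partner each way formed pairs. Ratio intervals are exact binomial (95%).

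Full values were given for the widest and highest-fold regions of each cluster, unshared regions, and pairs shifted by over 10 points. The division at the window middle, the limit of 30 fragments, the pairs past 1.5-fold and other regions named were picked with their values in view. The members and lists were chosen with earlier results of these data known. Alternatives covered thresholds, window edges, merging, overlap, ranking and centring. Software was scipy 1.17.1, pandas 2.3.3 and numpy 2.4.6 under Python 3.11.15, with plots by matplotlib 3.10.9.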

Additional observations from a re-analysis of the deposited data

How the results depend on the processing

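No paired analysis was possible because a genotype has a single library, which also leaves no replicate to omit. Region numbers and covered bases of each cluster stayed within 1.5 times their values at a −log10 q of at least 5, with windows widened by 10 kb, with regions wholly inside the windows and after merging within 1 kb. For HOXD, widening raised the region number from 5 to 7 in the wild-type and from 6 to 9 in the knockout list. Median widths stayed within 1.5 times their values at that −log10 q and after merging. Under a reciprocal overlap of 50% shared wild-type regions became 13 of 15 in HOXA, 11 of 13 in HOXB and 3 of 5 in HOXC, with 3 HOXC regions shared in the knockout list too.

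Percentiles taken over all deposited sequences were slightly higher. The median fold percentile of HOXA, HOXC and HOXD became 43.98, 39.65 and 43.72 in the wild-type list, and that of HOXA, HOXB, HOXC and HOXD 47.02, 17.78, 39.91 and 44.90 in the knockout list. For −log10 q they became 50.93, 37.41, 20.08 and 36.44 (wild type) and 50.64, 35.57, 21.49 and 35.33 (knockout) in the order HOXA to HOXD.

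The median shift in fold percentile was −0.27 in HOXA, 2.68 in HOXB and 1.61 in HOXC. Ranked by −log10 q it became −2.36 in HOXA and 6.91 in HOXB, and ranked by pileup 6.89 in HOXB and 3.28 in HOXC. The median centred log2 ratio of HOXB, 0.21, became 0.093 against other pairs of chromosome 17 and 0.071 against pairs within 2 Mb. That of HOXA, −0.21, became −0.13 against pairs within 2 Mb and −0.068 with the pileups of its pairs summed. The 2 Mb and summed settings were chosen after seeing the data. No median changed sign, and the cause of these moves was not tested. At the weak end, wild-type calls began at 7 fragments and knockout calls at 11, and an effect of depth there was not tested.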

Other observations

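Most paired HOX summits lay within 100 bp of each other, although their median distance was larger than that of all pairs. Over the 34 one-to-one HOX pairs the median distance between the wild-type and the knockout summit was 32 bp, against 18 bp over all pairs, and it was within 100 bp in 30 of them (88.2%, against 86.4% of all pairs). By cluster the medians were 22 bp in HOXA, 61 bp in HOXB, 37 bp in HOXC and 45 bp in HOXD. All 13 HOXA pairs lay within 100 bp, while the largest distance was 604 bp and belonged to a HOXC pair.

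The surroundings of the clusters differed. Flanks of the length of each window held no region on either side of HOXA in either list, nor on the posterior side of HOXC. The posterior flank of HOXB, beyond HOXB13, held 5 regions in each list, covering 2.31% of its bases in wild-type and 2.55% in knockout cells. The HOXD flanks were covered to 1.53% and 1.63% on the anterior side, beyond HOXD1, and to 1.75% and 2.45% on the posterior side, beyond HOXD13.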
